A study of Mus musculus with 2 samples.

Results

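Mouse chromosome 12 from 30 Mb to its end (91.3 Mb of the mm9 assembly) held 19046 of the 400000 DNase I hypersensitive peaks deposited for 2 erythroid cell states. A peak was counted as a member when its summit lay in that stretch, and the 19046 peaks merged into 9341 separate regions of 188044 in the genome. The stretch was chosen by its peak counts in these same lists, which had been seen to be lower in G1E-ER4 cells than in G1E cells. The difference in peak numbers and in peak strength between the states is therefore a description here, and no test of it is given. Chromosome 12 below 30 Mb (2476 peaks) and chromosome 11 (32770 peaks), measured in the same lists, are set beside it.

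G1E cells are a male mouse line of strain 129 made from embryonic stem cells, arrested as erythroid progenitors because they lack Gata1, and they received no treatment. G1E-ER4 cells derive from them, carry Gata1 restored in a form that estradiol activates, and had spent 24 h in 10 nM beta-estradiol when they were harvested. Both states thus share the loss of the endogenous Gata1 gene, and each is represented by 1 line. The effects of the line, of Gata1, of the hormone and of the sample cannot be told apart, since no sample separates them. Each state has 1 sample with 2 peak lists of 100000 peaks, and no label states that these stem from different cultures. Their scatter may be technical only. With 2 lists against 2 there are 3 ways to divide the lists, and the smallest p that a permutation could give is 0.333.

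DNase I cuts DNA where nucleosomes are displaced, so its hypersensitive sites mark promoters of active genes and the distal enhancers, silencers and insulators that control them. Gata1 binds the short motif GATA and, during red cell maturation, switches on globin and membrane genes while progenitor genes are shut. Chromosome 12 of the mouse carries, beyond the stretch's start, genes as different as the spectrin gene Spnb1, the immediate early gene Fos, the imprinted Dlk1 to Dio3 cluster, the serpin cluster of the liver and the immunoglobulin heavy chain genes.

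Read depth is unknown, and because all lists have the same length, a peak count is a share of a list. Of 10 erythroid marker genes, 9, 10, 9 and 9 were open at the promoter in G1E-ER4 list 1, G1E-ER4 list 2, G1E list 1 and G1E list 2 (among those open in all 4 lists were Klf1, Tal1, Gata1, Epor, Slc4a1, Zfpm1, Nfe2 and Lmo2), an order kept for all sets of 4 values in the text. Of the 5 lymphoid markers, 4 had an annotated start and 1, 2, 0 and 0 of them had a peak at the promoter, and Cd3e had none in any list. Of 2 neural markers with a start, 0, 1, 0 and 0 had one. Of 3 liver markers 1, 1, 1 and 1 did, and of 3 pluripotency markers 0, 2, 1 and 1. No untreated DNA library was analysed here, so the number of chromosome copies per cell was not tested.

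The sequences around 8 summits are given as single examples, picked by rank or by gene, and do not stand for their classes. Each runs over 151 bases of the plus strand of mm9, centred on the summit, and capitals mark a match to 1 of 8 short factor motifs. The first pair are the sites of all 4 lists at which G1E-ER4 ranked most above G1E, the site near Klhdc2 at chr12:70394967-70395117 and the one in an intron of Ccdc88c at chr12:102239365-102239515. They are followed by the strongest site found in G1E-ER4 alone, 35353 bp from the start of Dlk1 (chr12:110733331-110733481), and by the site of all 4 lists at which G1E ranked most above G1E-ER4, 4219 bp from the start of Rps6ka5 (chr12:101967382-101967532).
Klhdc2: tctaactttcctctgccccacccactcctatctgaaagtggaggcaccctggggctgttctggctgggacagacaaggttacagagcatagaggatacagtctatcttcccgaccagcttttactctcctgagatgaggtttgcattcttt
Ccdc88c: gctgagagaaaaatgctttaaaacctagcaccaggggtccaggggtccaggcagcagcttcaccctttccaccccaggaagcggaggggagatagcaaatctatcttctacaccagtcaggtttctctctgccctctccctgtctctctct
Dlk1: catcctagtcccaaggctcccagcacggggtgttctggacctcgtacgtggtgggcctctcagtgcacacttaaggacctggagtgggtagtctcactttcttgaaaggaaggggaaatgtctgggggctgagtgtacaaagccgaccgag
Rps6ka5: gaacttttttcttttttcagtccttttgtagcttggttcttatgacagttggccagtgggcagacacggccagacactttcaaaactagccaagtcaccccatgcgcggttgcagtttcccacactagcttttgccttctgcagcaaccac

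Among the 3 strongest sites found in G1E alone were one between genes near Abhd12b (chr12:71241626-71241776) and one in an intron of Gm5662 (chr12:89535872-89536022). The strongest G1E-only sites near Fos (chr12:86805946-86806096) and Zfp36l1 (chr12:81206305-81206455) are shown as examples at genes of blood cells.
Abhd12b: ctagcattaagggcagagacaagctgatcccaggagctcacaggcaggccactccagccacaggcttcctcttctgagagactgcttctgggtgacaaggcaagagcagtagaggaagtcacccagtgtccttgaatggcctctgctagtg
Gm5662: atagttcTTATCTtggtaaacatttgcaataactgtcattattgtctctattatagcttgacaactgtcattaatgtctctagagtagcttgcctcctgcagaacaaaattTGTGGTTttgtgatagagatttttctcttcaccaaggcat
Fos: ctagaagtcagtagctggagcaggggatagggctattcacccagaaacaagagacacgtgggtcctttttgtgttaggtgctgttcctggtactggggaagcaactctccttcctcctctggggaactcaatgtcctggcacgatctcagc
Zfp36l1: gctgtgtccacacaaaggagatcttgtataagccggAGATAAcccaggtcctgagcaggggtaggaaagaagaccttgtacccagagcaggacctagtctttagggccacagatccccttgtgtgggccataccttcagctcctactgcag

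The Gm5662 site held 1 GATA match, TTATCT, and 1 RUNX match, TGTGGTT. The Zfp36l1 site held the GATA match AGATAA, and the other 6 sequences held no match to the letter patterns searched. For GATA these were AGATAA and TGATAA on either strand. AGATAG and its reverse complement CTATCT, both in the Ccdc88c sequence, were not counted, nor was CTATCT in the Klhdc2 sequence. Nor did the E-box search count CACGTG, which the Fos sequence holds.

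G1E-ER4 lists 1 and 2 had 3116 and 3192 peaks in the stretch, and G1E lists 1 and 2 had 6201 and 6537. Both G1E lists were far above both G1E-ER4 lists, and the states did not overlap. The mean was 2.02-fold higher in G1E, which is -1.01 as the log2 of G1E-ER4 over G1E, and over the 4 pairs of 1 list from each state the ratio lay between -1.07 and -0.96. The second list differed from the first by 0.03 in G1E-ER4 and 0.08 in G1E on the same scale. Chromosome 12 below 30 Mb had 664, 673, 607 and 532 peaks, where the G1E-ER4 lists were the higher (0.23). Chromosome 11 had 8203, 8182, 8387 and 7998, with a ratio of 0.00. Of the other whole chromosomes, the lowest ratio was -0.34 on X, and the highest were 0.48 on chromosomes 3 and 7.

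The stretch has 580 protein-coding genes, 6.36 per Mb, against 4 per Mb on chromosome 12 below 30 Mb, 13.5 per Mb on chromosome 11 and 8.24 per Mb on the other chromosomes. The G1E lists had 68.0 and 71.6 peaks per Mb there, as many as on gene-rich chromosome 11 (68.8 and 65.6). The G1E-ER4 lists had 34.1 and 35.0 per Mb, close to their 36.5 and 36.5 on all other chromosomes combined. Peaks covered 2.72, 3.69, 5.61 and 7.54% of the stretch, and median peak widths of 535, 791, 557 and 683 bp overlapped between the states. Numbers in the deposited peak names, which rise with position in every list and run past the 100000 kept, gave the stretch 3.40, 3.55, 6.10 and 6.28% of their total. What these numbers count is stated by no source used here.

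The difference began inside the stretch and not at its start. Just outside the 30 Mb limit, the window from 29 to 30 Mb had 77, 117, 82 and 64 peaks, and just inside it the window from 30 to 31 Mb had 9, 15, 14 and 4. The lists of the states overlapped at 29 Mb and at 30 Mb alike. From 31 to 32 Mb the counts were 41, 27, 28 and 25, from 32 to 33 Mb they were 70, 69, 76 and 109, and from 33 to 34 Mb they were 50, 49, 87 and 101. Both G1E lists were above both G1E-ER4 lists in the windows at 32 and 33 Mb, and not in the windows at 29 to 31 Mb. A 2-level fit to the counts of 1 Mb windows placed the step at 32 Mb, and a fit to 100 kb windows placed it at 32.4 Mb, with 32.5 Mb within 2 log units of the best place. Of the 4 pairs of lists, 3 gave 32.4 Mb in 100 kb windows, and G1E-ER4 list 2 with G1E list 1 gave 33.6 Mb. Without G1E-ER4 list 2, or without G1E list 2, the 1 Mb fit gave 33 Mb.

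The step at 32.4 Mb falls in Cog5 (chr12:32339734-32622495), which encodes a subunit of a Golgi tethering complex. In the 2 Mb before it the lists had 82, 57, 57 and 53 peaks (log2 ratio 0.34), and in the 2 Mb after it 98, 115, 169 and 207 (-0.82). The states were apart on the far side and touched on the near side. Slc26a4, an anion exchanger gene on the near side, had 6, 4, 2 and 3 peaks in its body, and Bcap29 had 7, 3, 1 and 6. On the far side Prkar2b, which encodes a regulatory subunit of protein kinase A, had 9, 16, 16 and 29, and the promoter of Pik3cg, a PI3-kinase subunit of blood cells, had a peak in both G1E lists (percentiles 74.0 and 85.5) and in no G1E-ER4 list. From 32.4 Mb to the end the lists had 3032, 3128, 6140 and 6484 peaks (-1.04).

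**Figure D1:**
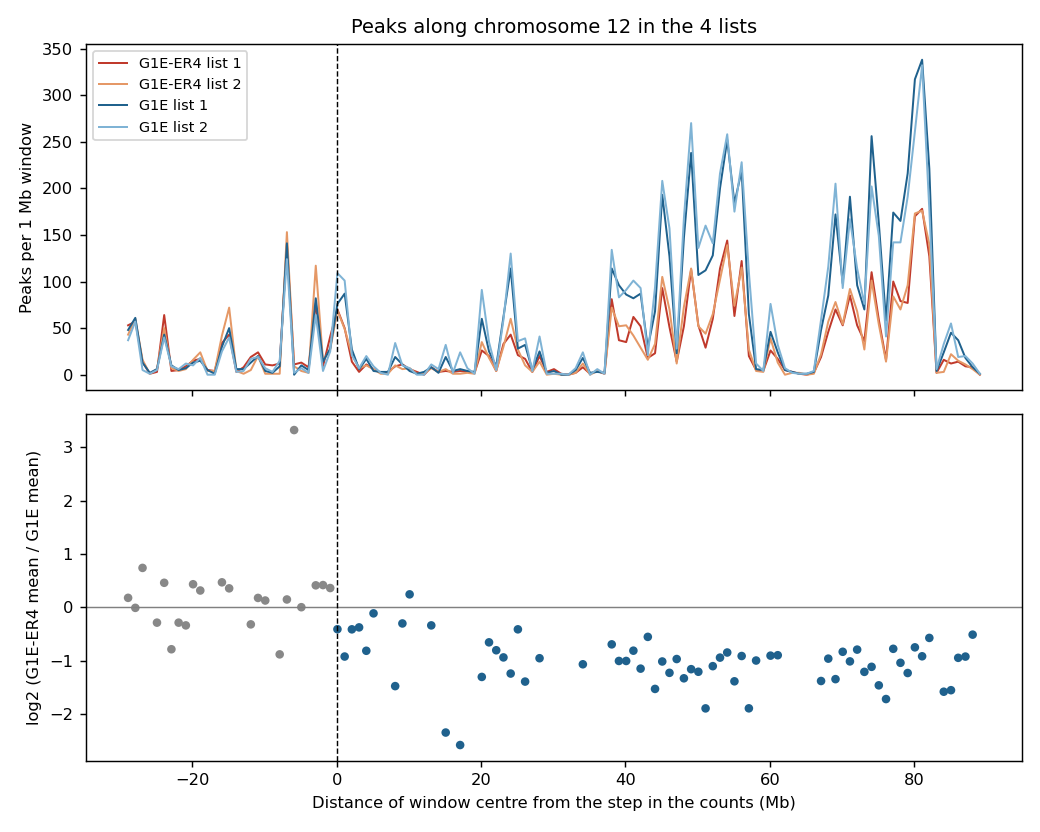
Peaks per 1 Mb window along chromosome 12 in the 4 lists (top) and log2 ratio of the mean G1E-ER4 to the mean G1E count in windows with 20 or more peaks (bottom), against distance in Mb from the step in the counts (dashed line). Of the 29 windows before 32 Mb with a peak, 1 had both G1E lists above and 6 had both G1E-ER4 lists above, while 43 of the 44 windows of the stretch with 100 or more peaks had both G1E lists above.

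Window by window, lower counts in G1E-ER4 were seen along the stretch, mainly in windows rich in peaks. Of the 91 windows of the stretch with a peak, 65 (71.4%) had both G1E lists above both G1E-ER4 lists and 0 had the reverse, where elsewhere in the genome 16.5% of windows went each way. Among the 44 windows with 100 or more peaks over the lists, 43 had both G1E lists above. Their log2 ratios had a median of -1.02 and quartiles of -1.26 and -0.89. Elsewhere the median of 1040 such windows was 0.02, and 2 of them (0.192%) lay below the median of the stretch. The lowest ratio, -1.90, was at 83 to 84 Mb, around Sipa1l1 and Rgs6 (29, 44, 112 and 160 peaks). The smallest difference among these windows beyond 33 Mb was at 57 to 58 Mb, around the developmental factor genes Nkx2-1, Nkx2-9 and Pax9 (21, 27, 28 and 36 peaks, -0.42).

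The mean G1E-ER4 count was at or above the mean G1E count in 10 windows, 3 of them ties. The 2 at 30 to 32 Mb lie before the step and had 92 peaks summed over the G1E-ER4 lists and 71 over the G1E lists. Their genes include Myt1l and Pxdn, and then Sntg2, Tmem18, Acp1, Fam150b, Sh3yl1, Fam110c and Lamb1. The other 8 began at 39, 42, 43, 61, 62, 63, 95 and 96 Mb and had at most 24 peaks over the 4 lists, in gene-poor stretches that hold Etv1, Lrrn3, Lrfn5, Spanxn4, Gm9726 and Flrt2. No window against the trend beyond the step was thus rich in peaks.

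Counted over all strengths, promoter peaks differed between the states far less in number than distal peaks. With the summit within 1000 bp of a protein-coding start, the stretch had 376, 416, 488 and 463 peaks, and elsewhere it had 2740, 2776, 5713 and 6074. In both kinds the G1E lists were above the G1E-ER4 lists, with log2 ratios of -0.26 at promoters and -1.10 away from them. Among the strongest 50% of each list the promoter ratio was -0.064 and the distal one -0.86. The ratio fell with distance from a start, from -0.80 at 1 to 10 kb through -1.12 at 10 to 50 kb to -1.37 beyond 50 kb. Chromosome 11 had 1283, 1329, 1377 and 1223 promoter peaks (0.01) and a distal ratio of 0.00.

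**Figure D2:**
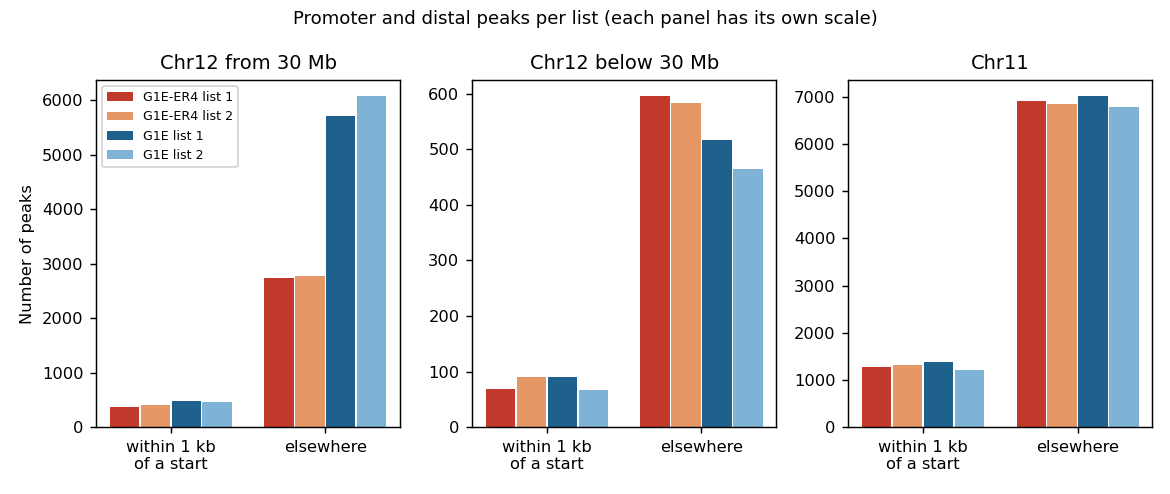
Number of peaks with a summit within 1 kb of a protein-coding start and elsewhere, for each list, in the stretch, on chromosome 12 below 30 Mb and on chromosome 11, each panel with its own scale from 0. The distal bars of the stretch stand at 2740, 2776, 5713 and 6074, while on chromosome 11 the 4 bars of each kind are nearly level.

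The excess in G1E lay mostly among weak peaks. Signal ranks were used within each list, as percentiles with 100 for the strongest. In each of the 6 weakest 10% bands of a list the log2 ratio was between -1.36 and -1.10, for example 313, 301, 739 and 835 peaks from the 40th to the 50th percentile. In the 4 strongest bands it was between -0.78 and -0.45, with 262, 297, 390 and 420 peaks in the strongest. Both G1E lists were above both G1E-ER4 lists in every band. The median percentile of the peaks in the stretch was 47.6, 47.5, 42.0 and 40.2, so the G1E lists held lower ranks there, and on chromosome 11 it was 53.0, 52.0, 50.5 and 50.9. At the other extreme, the strongest 1000 peaks of each list included 27, 30, 91 and 89 from the stretch, a wider gap than in the list as a whole.

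**Figure D3:**
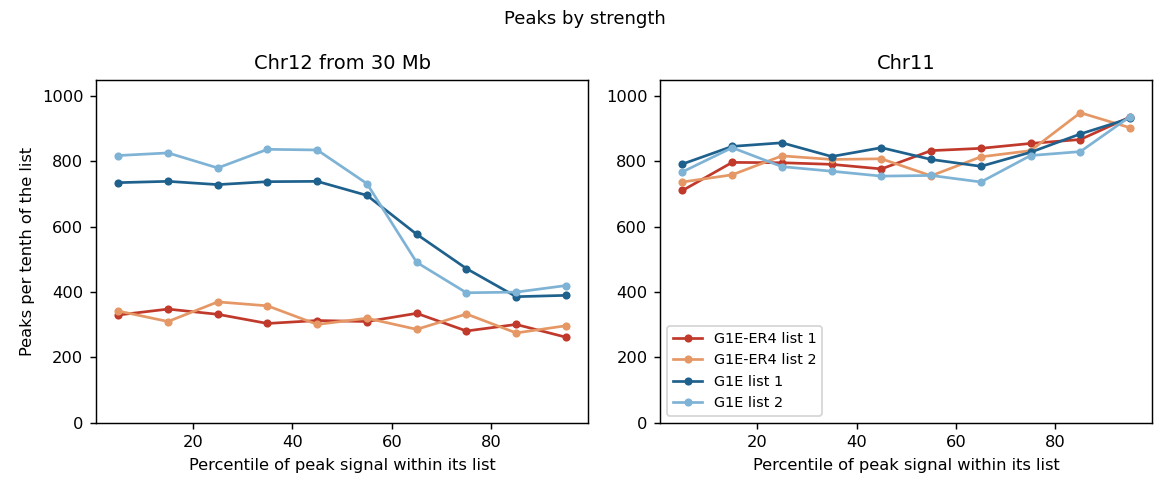
Number of peaks in each 10% band of the list by signal percentile (weakest at left, strongest at right) for the stretch and for chromosome 11. In the stretch the G1E lists fall from 735 and 818 peaks in the weakest band to 390 and 420 in the strongest, and the G1E-ER4 lists stay between 262 and 370.

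Promoter and distal sites behaved differently mainly in the stronger bands. In the 10% bands below the 60th percentile the promoter log2 ratio was between -1.14 and -0.71. The distal ratio in those bands was between -1.37 and -1.12. Distal peaks in the strongest 10% numbered 119, 72, 155 and 188, with both G1E lists above. Promoter peaks in the strongest 10% numbered 143, 225, 235 and 232, and G1E-ER4 list 1 stood apart from the rest. From the 80th to the 90th percentile there were 76, 45, 31 and 23 promoter peaks, so both G1E-ER4 lists were the higher (1.16). The same band on chromosome 11 had 235, 151, 143 and 134 (0.48), again with both G1E-ER4 lists higher. Of the 296 promoter regions held by all 4 lists in the stretch, both G1E percentiles were above at 171 (57.8%, where the genome had 14.1%) and both G1E-ER4 percentiles at 9 (3.04%, where the genome had 13.8%).

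Peaks of the 4 lists that overlapped by 1 bp or more were merged into 9341 regions. All 4 lists shared 1010 regions (10.8%), both G1E lists alone held 1060 (11.3%, Wilson 95% interval 10.7 to 12.01, where the genome had 3.99%), and both G1E-ER4 lists alone held 34 (0.364%, 0.261 to 0.508, where the genome had 2.35%). The intervals cover counting error only. On chromosome 11 the shares were 18.8, 3.49 and 2.26%. The stretch held 4.97% of all regions of the genome, 14.1% of its G1E-only regions and 0.771% of its G1E-ER4-only regions. Of the 34 G1E-ER4-only regions, 2 lay before the step at 32.4 Mb, as did 6 of the G1E-only regions. Another rule took each list 1 peak that list 2 of the same state matched with 50% reciprocal overlap and that neither list of the other state did. Such peaks made up 15.9% of the 6201 peaks of G1E list 1 and 5.04% of the 3116 peaks of G1E-ER4 list 1, shares whose denominators differ from those of the merged regions. The shares also rest on requiring 2 lists. Without G1E-ER4 list 1 or G1E-ER4 list 2 the G1E-ER4-only share was 6.76% or 8.41%, and without G1E list 1 or G1E list 2 it was 0.863% or 1.29%. The G1E-only share was 15.98% or 18.6% without G1E-ER4 list 1 or list 2, and 47.6% or 42.7% without G1E list 1 or list 2.

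Of the G1E-only regions 97.5% were distal, against 94.5% of all regions of the stretch and 95% of the G1E-only regions of chromosome 11. Of the 1060, 512 lay in introns (48.3%), 475 between genes, 46 in exons and 27 at promoters, and 330 had no protein-coding start within 50 kb. Among the 514 promoter regions of the stretch, 27 (5.25%, where the genome had 1.71%) were G1E-only and 0 were G1E-ER4-only (where the genome had 1.43%), a count that allows a share of up to 0.584%. The G1E-ER4-only regions were 18 in introns, 15 between genes and 1 in an exon. Within their lists both classes were weak: median percentiles were 38.6 and 43.2 for the G1E-only regions and 25.6 and 14.5 for the G1E-ER4-only regions. On chromosome 11 the corresponding medians were 40.5 and 45.9, and 39.2 and 35.6.

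Sequence was read within 200 bp around the summits. Distal G1E-only regions of the stretch had a median GC content of 50.5%, and distal regions of all 4 lists 52.0%. A GATA match (AGATAA or TGATAA, either strand) was in 21.4% of the distal G1E-only regions and 27.2% of the distal regions of all 4 lists, where 20.2% of all distal regions of the genome had one. Over the genome, 26.1% of distal G1E-only regions had one. A CTCF match (AGGGGGC or AGGTGGC, either strand) was in 8.81% of the distal G1E-only regions of the stretch and 19.9% of its distal regions of all 4 lists. Among all distal regions the share was 8.67% in the stretch and 10.5% in the genome, so the G1E-only share was near that of the stretch. CTCF binds insulators, which are open in many cell types. A match is only a run of letters.

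At the 1010 regions of all 4 lists, where both states had an open site, signal ranked higher in G1E. Median percentiles were 78.0, 79.4, 84.2 and 85.7, and both G1E lists were above both G1E-ER4 lists. The median difference, mean G1E-ER4 minus mean G1E percentile, was -5.25 points (-3.70 at 296 promoters, -7.25 at 714 distal regions), against -0.25 on chromosome 11 and -1.05 on chromosome 12 below 30 Mb. Both G1E percentiles were above both G1E-ER4 percentiles at 490 regions (48.5%, where the genome had 16.2%), and the reverse held at 60 (5.94%, where the genome had 19%). The G1E percentiles were both above at 171 of the 296 promoters (57.8%) and at 319 of the 714 distal regions (44.7%). The reverse held at 9 and 51. Divided by the same list's chromosome 11 median, the median signal at these regions was 0.813, 0.765, 1.13 and 1.15, so G1E signal was above its chromosome 11 level and G1E-ER4 signal below its own. At the promoter regions alone the values were 0.855, 0.986, 1.36 and 1.36, and at the distal regions 0.851, 0.819, 1.15 and 1.22. By signal the states were thus apart at promoters as well as at distal sites. On chromosome 12 below 30 Mb the values over all regions of the 4 lists were 0.855, 0.929, 0.934 and 0.796, with the states mixed.

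**Figure D4:**
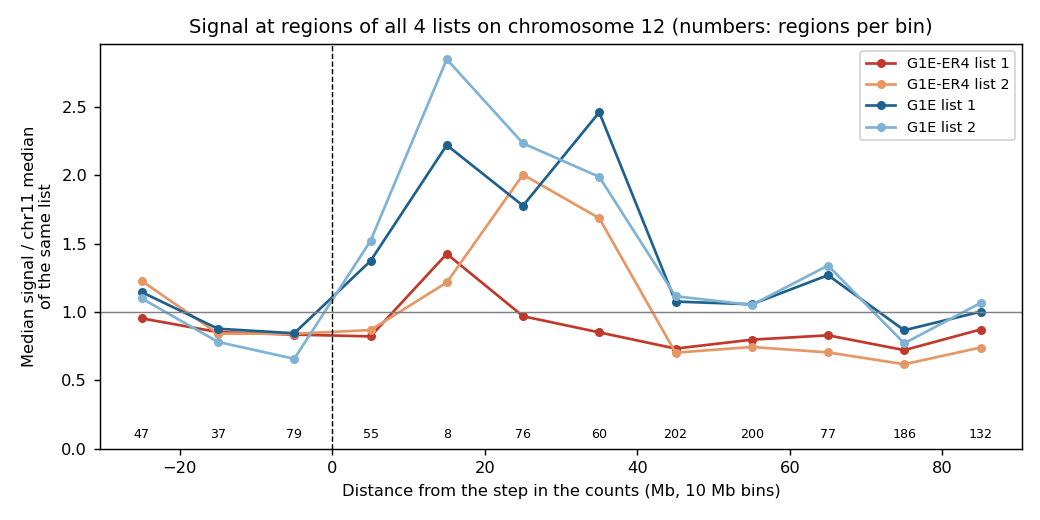
Median signal at regions held by all 4 lists, divided by the chromosome 11 median of the same list, in bins of 10 Mb from the step (dashed line). Before the step the 4 lists are interleaved. In the first 10 Mb after it they are at 0.822, 0.869, 1.37 and 1.52, and both G1E lists are above both G1E-ER4 lists in each later bin but the one from 20 to 30 Mb (0.970, 2.01, 1.78 and 2.23). The bin from 10 to 20 Mb holds 8 regions.

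Promoters of single genes followed the same order. A peak reached within 1000 bp of a start in 375, 424, 458 and 439 of the 580 genes, and in all 4 lists for 346 (59.7%, where the genome had 51.5%). Only the 2 G1E lists had one at 15 genes (2.59%, where the genome had 0.841%), and only the 2 G1E-ER4 lists at 1 gene, where the genome had 1.18%. That gene was Sntg2, a syntrophin gene at chr12:30859347-31058240 before the step, at percentiles 64.2 and 69.8. The 15 include Pik3cg, the chromatin gene Dpf3 (9.27 and 34.2), Ppp1r13b, whose product binds p53 (63.9 and 76.1), the mitochondrial carrier gene Slc25a47 (5.46 and 44.9) and the strongest of them, Gm10451 (84.8 and 88.8). The others were Sstr1, Tomm20l, Fam71d, Gm17301, Adam21, Gm17673, Gm6772, Gm10436, Gm10431 and Tcl1b2. Of these, Sstr1 (5.46 and 2.13), Fam71d (2.30 and 3.11) and Gm17673 (3.34 and 0.33) lay at the weak end of both G1E lists. Adam21 (77.3 and 69.7) and Gm6772 (64.7 and 79.3) did not.

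Peaks nearest to each gene, within 50 kb of a start, showed how widely the difference was spread. Of 580 genes, 300 had at least 1 G1E-only region, where 17% of the genes elsewhere had one, and 24 had at least 1 G1E-ER4-only region, where 12.6% elsewhere did. Both G1E lists had more peaks than both G1E-ER4 lists at 288 genes (49.7%) and the reverse held at 7, and among the 346 genes with promoters open in all 4 lists both G1E promoter percentiles were above at 200 (57.8%) and both G1E-ER4 ones at 12. These shares over all genes of the stretch are the measure for the gene groups, and no difference between groups was tested. Among the 245 genes with 20 or more peaks, 179 (73.1%) had both G1E lists above both G1E-ER4 lists, against 13.7% of such genes elsewhere, and 2 had the reverse, against 16.4% elsewhere. Those 2 were 1200009I06Rik, with 9, 9, 8 and 8 peaks, and Slc26a4, with 10, 5, 2 and 3. Slc26a4 lies before the step.

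**Figure D5:**
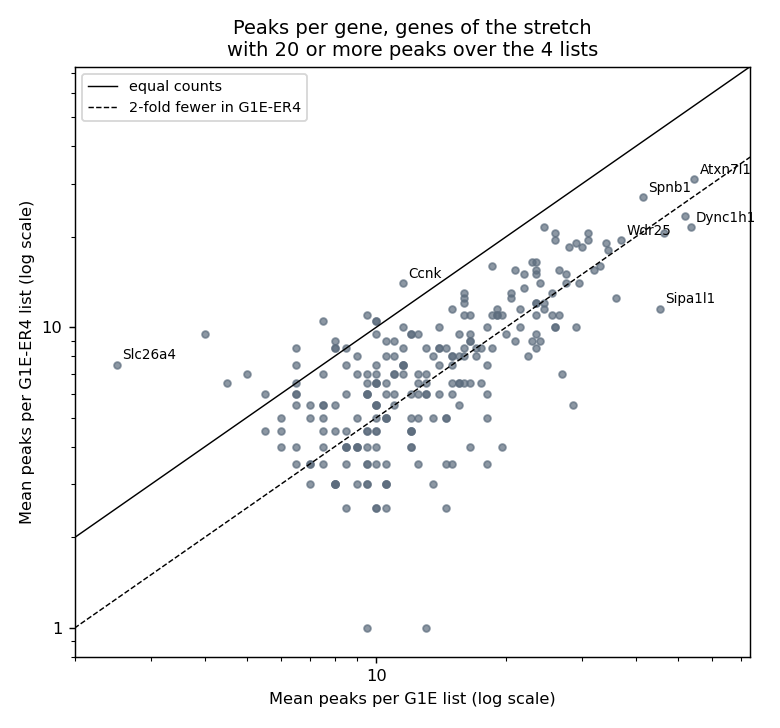
Mean number of peaks per list in G1E-ER4 against G1E, both on log scales, for the 245 genes of the stretch with 20 or more peaks over the 4 lists. Each point is a gene, the solid line marks equal counts and the dashed line counts 2-fold lower in G1E-ER4. Most points lie below the solid line, with Sipa1l1 well below the dashed line and Slc26a4 above both.

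The gene with most G1E-only regions was Wdr25, which encodes a WD repeat protein, with 13, and its peaks numbered 26, 13, 39 and 35. Sipa1l1, which encodes a GTPase activator of Rap proteins, had 11 and the counts 11, 12, 32 and 59. A730018C14Rik, Ppp1r13b and Ppp2r5c, a phosphatase 2A subunit gene, had 10 each. Atxn7l1, the dynein heavy chain gene Dync1h1 and Wdr20a had 9 each, and 6430527G18Rik and the orphan receptor gene Esrrb had 8. At Dync1h1 the counts were 18, 25, 54 and 53. At Esrrb they were 18, 23, 51 and 42. Every G1E list was above every G1E-ER4 list at each of the 4 genes whose counts are given.

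Genes of red cells, hypoxia and blood growth were largely open in both states with higher counts in G1E. Of 25 such genes, 22 had an open promoter in all 4 lists, and in 18 (72%, against 49.7% of all genes of the stretch and 73.1% of those with 20 or more peaks) both G1E lists had more peaks near the gene than both G1E-ER4 lists, as against 1 in reverse, Akt1 (7, 6, 2 and 4). Their summed peaks were 197, 227, 388 and 402 (log2 ratio -0.90). At 13 of the 22 open promoters (59.1%, against 57.8% of all such genes of the stretch) both G1E percentiles were above, and at 1 both G1E-ER4 ones. Spnb1, the beta-spectrin gene of the red cell membrane skeleton, had 21, 33, 45 and 38 peaks and 6 G1E-only regions, and its promoter stood at percentiles 93.0, 98.3, 99.3 and 98.1, where the states overlapped. An intron site of Spnb1 at chr12:77779698-77781469 was at 63.9, 47.5, 84.7 and 91.3, with both G1E lists higher.

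Hif1a, the oxygen-regulated transcription factor gene, had its promoter at percentiles 91.1, 99.3, 99.4 and 99.6 and 1, 2, 6 and 3 peaks. Zfp36l1, which encodes an RNA-binding protein that speeds mRNA decay, had 16, 22, 33 and 35 peaks and 7 G1E-only regions, among them the sequence printed above with the GATA match (percentiles 75.7 and 66.7). Nfkbia, the gene of the inhibitor of NF-kappa-B, had 8, 10, 27 and 21 peaks and 5 G1E-only regions. The G1E lists were the higher at each of these 3 genes. Jag2, a Notch ligand gene, was the 1 gene of the list whose promoter ranked higher in both G1E-ER4 lists, at 82.8, 85.2, 82.5 and 67.1.

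Of 36 transcription and chromatin factor genes, 26 had promoter peaks in all 4 lists. More peaks in both G1E lists were seen at 22 (61.1%, against 49.7% of all genes of the stretch). At 1, Twist1, both G1E-ER4 lists had more (2, 2, 1 and 0). Summed peaks were 210, 227, 402 and 404 (-0.88). At 12 of the 26 open promoters (46.2%, against 57.8% of all such genes of the stretch) both G1E percentiles were above, and at 0 both G1E-ER4 ones. Fos, an immediate early gene that pairs with Jun, had 10, 13, 27 and 22 peaks and 7 G1E-only regions. Its promoter was at percentiles 92.2, 92.7, 96.1 and 98.7, with both G1E lists higher. The G1E-only site near Fos shown above lay 8819 bp from its start at 72.4 and 73.8. Next to it, Jdp2, whose product represses AP-1 sites, had 15, 9, 23 and 26 peaks and 8 G1E-only regions. Max, the partner of Myc, had 19, 20, 33 and 29, and Yy1 had 13, 6, 14 and 19.

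Factor genes best known from the embryo had fewer sites and less order. Pax9 had 7, 10, 7 and 9 peaks and Nkx2-1 had 11, 6, 9 and 7, with the states overlapping at each. Bcl11b, a T cell factor gene, had 12, 11, 24 and 14 peaks, with both G1E lists above, but its promoter was at 65.9, 81.1, 69.9 and 49.6, where they overlapped.

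Of 30 housekeeping genes, 29 had an open promoter in all 4 lists (the nucleolar gene Fcf1 lacked one in G1E-ER4 list 1), and at 21 of the 29 (72.4%, against 57.8% of all such genes of the stretch) both G1E percentiles were above both G1E-ER4 percentiles, with 0 in reverse. The brain-type creatine kinase gene Ckb was at 71.6, 77.1, 96.6 and 98.9. The tRNA synthetase gene Wars was at 93.0, 98.2, 99.8 and 99.9, and the proteasome gene Psma3 at 80.7, 92.6, 96.6 and 97.2. Both G1E lists were the higher at each of the 3. Summed peaks near the 30 genes were 159, 140, 271 and 316 (-0.97). Both G1E lists had more peaks at 20 of the 30 (66.7%, against 49.7% of all genes of the stretch) and both G1E-ER4 lists at 0.

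Genes of DNA repair, replication and the cell cycle numbered 15, and 11 of them had promoter peaks in all 4 lists. Of these 11, 9 (81.8%, against 57.8% of all such genes of the stretch) ranked higher in both G1E lists and 0 in both G1E-ER4 lists. By peak counts, both G1E lists were above at 9 of the 15 (60%, against 49.7% of all genes of the stretch). Dicer1, the RNase that makes microRNAs, had 13, 15, 28 and 31 peaks and 7 G1E-only regions. Vrk1, a nuclear kinase gene, had 14, 11, 35 and 37 peaks and 8. Both G1E lists were higher at each. Ccnk, a cyclin of transcription kinases, had 15, 13, 8 and 15 peaks, so the states overlapped there.

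Of the 40 tissue-restricted genes, 12, 20, 22 and 14 had a promoter peak, 7 in all 4 lists and 15 in none. Summed over the 40 genes, peaks numbered 92, 93, 192 and 163 (-0.94), with both G1E lists above. Gene by gene, both G1E lists had more peaks at 12 (30%, against 49.7% of all genes of the stretch) and both G1E-ER4 lists at 0. Of the 7 promoters open in all 4 lists, both G1E percentiles were above at 3 (42.9%, against 57.8% in the stretch). Both G1E-ER4 percentiles were above at 2 of the 7 (28.6%, against 3.47% in the stretch). Chga, the chromogranin gene of endocrine cells, had 10, 9, 27 and 20 peaks and a promoter at 39.2, 79.3, 83.2 and 80.2. Fbln5, an elastic fibre gene, and Cyp46a1, the cholesterol 24-hydroxylase of brain, were the 2 of the list with promoters higher in both G1E-ER4 lists, at 44.6, 55.4, 29.8 and 20.6 and at 66.5, 85.0, 59.3 and 52.8. The serpin cluster of secreted protease inhibitors had 3, 6, 13 and 19 peaks over 0.798 Mb.

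Imprinted and rearranged loci followed the stretch as well. From Dlk1 to Dio3, where paternally expressed protein genes flank maternally expressed noncoding RNAs, there were 34, 33, 102 and 71 peaks, 12 G1E-only regions and 2 G1E-ER4-only regions. Dlk1 itself, which encodes a Notch-like inhibitor of differentiation, had 12, 12, 26 and 21 peaks, and Dio3, a thyroid hormone deiodinase gene, 9, 9, 25 and 17. Of the 4 measured members of the cluster list, 4 had more peaks in both G1E lists and 0 had promoters that ranked in 1 order. The immunoglobulin heavy chain locus (chr12:114523536-117238672), which is rearranged in B cells, had 24, 15, 65 and 85 peaks, with 16 G1E-only and 0 G1E-ER4-only regions. Both G1E lists were the higher at both loci, and leaving out the heavy chain locus gave the stretch a ratio of -1.01.

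Few sites went against the trend. Of the regions of all 4 lists, the one 2667 bp from a start of Klhdc2 (chr12:70394483-70395378), which encodes a substrate receptor of a ubiquitin ligase, stood at percentiles 93.3, 87.6, 25.7 and 39.2. The lower G1E-ER4 percentile was 48.4 points above the higher G1E percentile. The next was the Ccdc88c intron site (chr12:102238599-102239880), at 70.8, 67.8, 0.375 and 35.1. Ltbp2, whose product binds latent TGF-beta complexes, had an intron site (chr12:86159452-86163424) at 91.5, 78.8, 25.7 and 50.2. A neighbouring site within its span, nearest to a start of D030025P21Rik (chr12:86194289-86197280), was at 97.1, 86.8, 59.0 and 50.7, and a second one (chr12:86188305-86189798) at 84.0, 66.1, 11.9 and 42.0. All 3 of these lay within the span of Ltbp2.

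Of the 60 such regions the 10 with the widest gap are given here, and the rest of those 10 lay nearest to 6430527G18Rik (66.4, 72.2, 34.5 and 34.6, at 66336 bp from its start), Eml1 (68.3, 62.5, 37.2 and 33.8), 4930512B01Rik (78.0, 69.9, 45.1 and 46.2), Ppp2r5e (26.5, 34.1, 2.30 and 4.95) and Asb2 (55.7, 56.1, 34.5 and 22.5). Asb2 encodes a ubiquitin ligase subunit of blood and muscle cells. In each, both G1E-ER4 lists were above both G1E lists.

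Among sites found in G1E-ER4 alone, the strongest was the one near Dlk1 at 70.8 and 56.5 (chr12:110733212-110733629). Next were an intron site near Btbd6 (55.4 and 48.6), a site 1403 bp from the start of Gpr132, a lipid-sensing receptor gene of white blood cells (36.6 and 63.3), and an intron site of Slc26a4 (70.5 and 26.8). Those nearest to 3300002A11Rik, Nubpl, Daam1 (110321 bp from its start), 2610021K21Rik (168222 bp), 2010107E04Rik and Bdkrb2 (102459 bp) followed. Genes with more G1E-ER4-only than G1E-only regions numbered 9, with 1 against 0 each: Acot3, Agr3, Fancm, Fbln5, Golga5, Nkx2-1, Nubpl, Slc26a4 and Tecpr2. Some of these regions were weak, as at Nkx2-1 (percentiles 4.20 and 4.93), Acot3 (5.07 and 1.43) and Tecpr2 (14.1 and 7.75). The strongest was the Slc26a4 site. At 2 of the 9 genes, Agr3 (4, 2, 0 and 1 peaks) and Slc26a4, both G1E-ER4 lists also had more peaks in all. At Fbln5 (11, 6, 18 and 16), Golga5 (2, 4, 5 and 9) and Tecpr2 (4, 3, 10 and 5) both G1E lists had more. At the rest the states overlapped or touched.

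In the direction of the trend the gaps were wider. The site 4219 bp from a start of Rps6ka5, a kinase gene of the MAP kinase pathway, was at 13.4, 8.82, 86.3 and 86.9 (chr12:101966746-101968108). Sites near Gm17421 (13.4, 8.82, 75.2 and 75.2), in an intron near Lgmn, which encodes a lysosomal protease (8.55, 11.4, 70.0 and 74.8), and near C130039O16Rik (20.4, 18.4, 73.8 and 74.4) and the splicing factor gene Srsf5 (25.3, 10.9, 89.1 and 78.2) came next. Of the G1E-only regions, those near Abhd12b (88.2 and 87.3), Lrrn3 (84.5 and 90.5), Gm5662 (82.2 and 92.2), the Gm10451 promoter, Vash1 (87.7 and 84.4) and Itpk1, an inositol phosphate kinase gene (89.5 and 80.1), were the strongest. The Vash1 and Itpk1 sites lay 83885 and 58142 bp from the nearest start. Each of these G1E-only sites was in the strongest 20% of both G1E lists and had no peak in either G1E-ER4 list.

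A single peak in an intron of Ptprn2 was the strongest of the stretch in the 3 lists that held it. It ranked 6 in G1E-ER4 list 1, 2 in G1E list 1 and 4 in G1E list 2, with its summit on the same base (chr12, 117861961) in all 3. G1E-ER4 list 2 had no peak there, and its strongest peak of the stretch, ranked 5, lay 375 bp from the start of Rps29.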

How the data were processed

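DNase-seq peak lists were analysed, 2 for each of 2 samples, with the groups taken from the cell label. Per the labels' design text, DNase I ends were captured as short tags, aligned to mm9 with Bowtie keeping tags of several matches, pooled by lane within a replicate and turned by F-seq into a density, with peaks called per list. No version or calling threshold is given in the sources used here. The authors deposited for each peak a signal, its density from F-seq, with no stated scaling, which was used as a percentile within its list or relative to the same list's chromosome 11. The deposited score was 0 and the p and q columns -1 throughout, so they were not used.

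Python 3.11.15, pandas 2.3.3 and pysam 0.24.0 were used with the mm9 sequence and the GENCODE vM1 annotation. Coordinates are 1-based. Regions were merged at 1 bp overlap and placed by the summit of their best peak. For counts per gene they were given to the protein-coding gene with the nearest start within 50 kb. Single sites are named after the nearest start at any distance. A 2-fold step was simulated in 1 Mb windows, with Poisson counts and a constant ratio on each side. It was recovered to within 1 window, or with at most 30 peaks between the true and the found place, in 90.5% of 200 runs. Ratios that vary between windows, as in the real counts, and the 100 kb fit were not simulated. The stretch, the 6 gene lists and the 8 motifs (GATA, CTCF, ETS, AP-1, KLF, NRF1, RUNX and E-box) were chosen with earlier results of these data known. Named genes are those of the windows against the trend, the 10 with most one-state regions or strongest gaps, and list members, the examples from each list having been chosen after their values were seen. A few items that these rules would name are not reported here. Alternatives were other strength limits, overlaps, windows and distances, and leaving out each list.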

Additional observations from a re-analysis of the deposited data

How the results depend on the processing

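Of 55 alternative values over 8 results, 0 reversed and 31 stayed within the spread allowed. Among the strongest 50% and the strongest 20000 peaks of each list the log2 ratio of the stretch was -0.72 and -0.49, at promoters -0.064 and -0.089 (-0.36 with promoters reaching 2500 bp) and away from them -0.86 and -0.73. In 500 kb windows, 60.1% had both G1E lists above. Counted over the peaks of list 1 of a state, with 50% reciprocal overlap deciding a match in the other 3 lists, 15.9% were G1E-only and 5.04% G1E-ER4-only, a change of denominator and of overlap rule at once. The percentile difference at regions of all 4 lists was -7.06 where each list had exactly 1 peak, -7.25 away from promoters and -8.23 as a mean.

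Leaving out 1 list at a time gave -1.05 to -0.98 for the ratio of the stretch and 32 to 33 Mb for the step. The percentile difference ranged from -5.72 to -3.88. G1E-only shares ranged from 15.98% (without G1E-ER4 list 1) to 47.6% (without G1E list 1), with 18.6% and 42.7% without G1E-ER4 list 2 and G1E list 2. G1E-ER4-only shares ranged from 0.863% (without G1E list 1) to 8.41% (without G1E-ER4 list 2), with 6.76% and 1.29% without G1E-ER4 list 1 and G1E list 2. By construction these shares rise when fewer lists are required. The cause of the other changes was not tested. No paired analysis was possible because each state has 1 sample, so that fewer than 2 pairs exist. A fit without repeats was not run, as the reference used marks none. Equal list lengths and unknown depth limit all counts.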
